A study of Macaca fascicularis with 20 samples.

Results

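The microRNAs (miRNAs) miR-574, miR-887, miR-193a, miR-605, miR-942 and miR-3613 were described across the layers of the fetal macaque visual cortex. In the deposited tables the rows are named mir-574, mir-887, mir-193a, mir-605, mir-942 and mir-3613. They were chosen by their measured levels, as higher in a germinal zone than in the cortical plate of the libraries used here. The difference from the cortical plate is therefore how they were chosen, and it is given as a description with no test. Each name has a 5p and a 3p arm, so they make 12 arms of the 1656 arms (828 names) that both count tables hold. All 12 were among the 1139 arms that passed a filter on low counts, and 8 of them had a mean of at least 10 CPM, the counts of an arm scaled to a common library size.

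The tissue was fetal neocortex of the crab-eating macaque, Macaca fascicularis, cut out with a UV laser. The 7 regions were the ventricular zone (VZ), the outer subventricular zone (OSVZ) and the cortical plate (CP) of areas 17 and 18, and area 17 had its OSVZ cut in 2 parts, OSVZ_17int on the apical side (inner) and OSVZ_17ext on the basal side (outer). Each region had 2 libraries, replicate 1 of embryonic day 80 (set 1) and replicate 2 of embryonic day 79 (set 2). VZ thus had 4 libraries, OSVZ had 6 and CP had 4. The labels name no treatment, strain or genotype. Nothing in them ties the regions of 1 set to a single animal, and the spread that p-values rest on here is that between libraries, which may be technical.

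A miRNA is cut from a hairpin into a short duplex. One strand, from the 5p or the 3p side, is usually kept by an Argonaute protein and the other is mostly degraded. The kept strand pairs through its seed with messenger RNAs and lowers their output. Radial glia divide in the VZ, basal radial glia and other progenitors divide in the OSVZ, which is thick in primates, and young neurons settle in the CP. In the human genome miR-574 lies within FAM114A1, miR-887 within FBXL7, miR-605 within PRKG1 and miR-942 within TTF2. miR-193a lies beside a copy of miR-365, and miR-3613 lies near TRIM13 in the region of miR-15a and miR-16. The genome build used for these libraries is not known here.

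Library totals ran from 3603478 to 9517217 counts. Marker miRNAs were set beside the layer labels. Their lists were chosen with earlier results of these data known, so this is no independent check of the labels. The summed level of 22 arms of neuronal miRNAs was 17399 to 25483 CPM in CP and 3016 to 6190 CPM in the germinal zones, and of 20 tested arms 9 were lower in VZ and 11 in OSVZ than in CP with edgeR. The 24 arms of progenitor-linked miRNAs summed to 21106 to 39048 CPM in CP and 48825 to 127013 CPM in the germinal zones. They include miR-92b-3p, with a mean of 19428 CPM over the 14 libraries. Of them 4 were higher and 1 lower in VZ and 3 higher in OSVZ, while 19 and 21 did not pass. Over all tested arms 7.37% were called in VZ and 6.32% in OSVZ, in either direction. A series-wide oddity bears on any reading by arm. For miR-130b the 3p arm took 2.44% to 25.5% of the counts in set 1 and 0.263% to 0.440% in set 2, while its 5p arm took 0.149% to 0.409% and 0.898% to 4.48%. None of the 6 names exchanged arms between sets in every region, as miR-130b did. For miR-605 the leading arm did change with the set in VZ_18 and OSVZ_17int. There the 5p share of its counts was 29.1% and 23.8% in set 1 and 71.5% and 98.6% in set 2. The 3p arm led in 14 of 14 libraries for miR-574 and miR-887, the 5p arm led in 14 of 14 for miR-193a and miR-3613 and in 13 of 14 for miR-942, and neither led throughout for miR-605.

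In both comparisons with CP, 11 of the 12 arms had a higher fitted level in the germinal zone and miR-942-3p did not. The median log2 difference of the 12 arms was 2.87 for VZ and 2.49 for OSVZ, beside -0.22 and -0.20 over all 1139 arms. Every VZ library was above every CP library for 7 of the 12 arms, which 3.07% of all tested arms met. Every OSVZ library was above every CP library also for 7 of 12, against 2.72% of all arms. For 6 arms all 10 germinal zone libraries were above all 4 CP libraries, against 1.49% of all arms. Nothing is read from these shares, since this contrast chose the names. Fewer cells of a type and less RNA per cell cannot be told apart in such pieces of tissue.

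**Figure D1:**
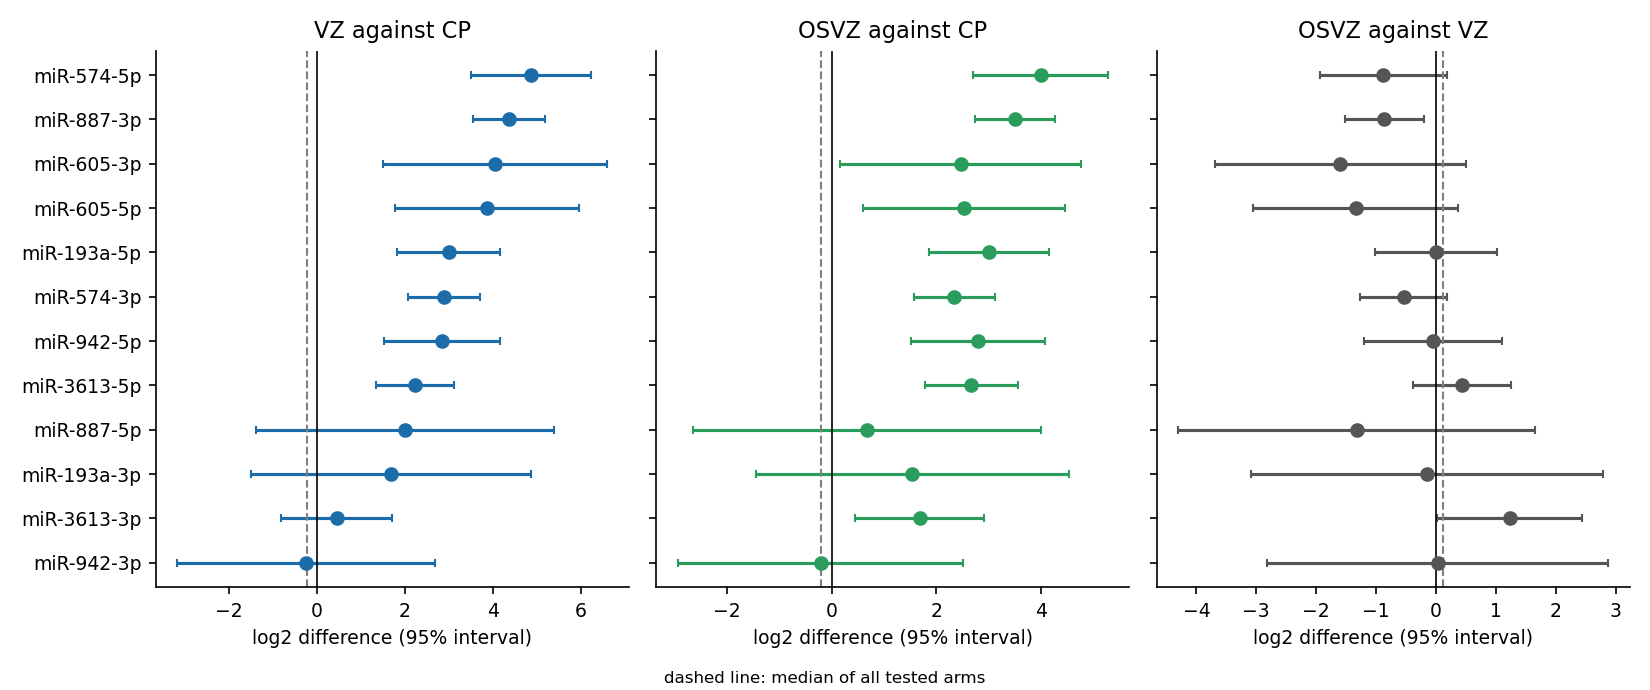
Log2 differences (x axis) of the 12 member arms for VZ against CP, OSVZ against CP and OSVZ against VZ, with 95% intervals from the spread between libraries and the median of all tested arms as a dashed line. In both comparisons with CP 11 of 12 points lie above 0, while between OSVZ and VZ most intervals span 0.

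The cleanest layer difference was that of miR-887-3p, a miRNA whose function is little described. Its TMM-scaled level in CP was 84.2, 93.7, 85.9 and 88.3 CPM. In VZ it was 2393 and 1777 CPM in area 17 and 1315 and 1820 CPM in area 18. The 6 OSVZ libraries ran from 539 to 1213 CPM with a median of 1046 CPM. The CP libraries thus lay within a narrow band, and the lowest germinal zone library, OSVZ_17int replicate 1, was still far above it. VZ had a mean of 1826 ± 442 CPM (SD, n = 4), OSVZ of 968 ± 256 CPM (n = 6) and CP of 88.0 ± 4.13 CPM (n = 4). This made 20.7 times the CP level in VZ and 10.99 times in OSVZ, or log2 differences of 4.36 ± 0.40 (SE) and 3.50 ± 0.38. The ratio of VZ to CP was close in the sets, at 21.8 in set 1 and 19.8 in set 2, and the ratio of OSVZ to CP was 11.3 and 10.7. By region the order was VZ_17, VZ_18, OSVZ_18, OSVZ_17ext, OSVZ_17int, CP_17 and CP_18, and only the libraries of the VZ pair and of the CP pair overlapped with their neighbour in that order.

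The other strand, miR-887-5p, was close to the detection limit, with 0 to 41 counts per library and 0 counts in 4 libraries. A count of 0 allows up to 3 counts, which is 0.315 to 0.833 CPM of the library totals before TMM scaling. On the TMM scale of the levels, 3 counts were 0.690 CPM in CP_17 replicate 1 and 0.443 CPM in OSVZ_17int replicate 2. The zones overlapped, with a mean (± SD) of 1.78 ± 1.24 CPM over the 4 VZ libraries, 1.06 ± 2.15 CPM over the 6 of OSVZ and 0.720 ± 1.21 CPM over the 4 of CP. The 3p arm therefore made up nearly all reads of miR-887 in every layer.

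Both arms of miR-574 separated the layers. The 3p arm was the more abundant of the 2, at 1616, 5194, 1577 and 2161 CPM in VZ and 373, 525.6, 203 and 300.3 CPM in CP, with OSVZ at 1226 to 2182 CPM and a median of 1578 CPM. VZ_17 replicate 2, at 5194 CPM, stood above the other VZ libraries, which lay within the range of OSVZ. The VZ mean was 2637 ± 1725 CPM (SD, n = 4), that of OSVZ was 1619 ± 322 CPM (n = 6) and that of CP was 350.3 ± 136 CPM (n = 4). The log2 difference from CP was 2.88 ± 0.40 (SE) in VZ and 2.34 ± 0.38 in OSVZ, and for VZ it was 2.57 without VZ_17 replicate 2.

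The 5p arm of miR-574 has an alternating G and U sequence and is known as a decoy for the RNA-binding protein CUGBP1. It was at 138, 652, 174 and 166 CPM in VZ and at 8.75, 15.5, 9.74 and 0.635 CPM in CP. OSVZ libraries held 59.7 to 218 CPM, with a median of 137 CPM. No germinal zone library came down to the CP range. The mean of 283 ± 247 CPM in VZ (SD, n = 4) and 142 ± 65.8 CPM in OSVZ (n = 6) was 32.7 and 16.4 times the 8.65 ± 6.11 CPM of CP (n = 4), and the log2 differences were 4.87 ± 0.67 and 3.99 ± 0.63. VZ_17 replicate 2, at 652 CPM, raised the VZ mean and the VZ ratio of set 2 given below, and the VZ median was 170 CPM. The size of the log2 difference hung on CP_18, where replicate 2 had 5 counts. It ran from 4.24 without CP_18 replicate 2 to 6.74 without CP_18 replicate 1 for VZ, and from 3.37 to 5.87 for OSVZ under the same exclusions. Between sets the ratio of VZ to CP also differed, at 16.9 in set 1 and 50.8 in set 2 for miR-574-5p and 5.55 and 8.91 for miR-574-3p, and each of these was above 1. For OSVZ to CP it was 9.60 and 24.2 for the 5p arm and 6.18 and 3.54 for the 3p arm. By region the means of both arms were highest in VZ_17, where replicate 2 was the highest library of all. For the 5p arm VZ_17 replicate 1 was the lowest VZ library, and neighbouring germinal regions overlapped for both arms.

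miR-3613-5p, studied mostly in tumours, had its highest regional means in both sublayers of the area 17 OSVZ. It was at 669 and 350 CPM in OSVZ_17ext, 684 and 217 CPM in OSVZ_17int and 307 and 190.3 CPM in OSVZ_18. VZ had 265, 178, 220.2 and 319 CPM and CP had 44.4, 35.7, 48.1 and 83.8 CPM. The lowest germinal library was above the highest CP library, but OSVZ and VZ overlapped, and set 1 gave the higher value in all 3 OSVZ regions. Means were 403 ± 219.8 CPM in OSVZ (SD, n = 6), 245 ± 60.5 CPM in VZ (n = 4) and 52.99 ± 21.2 CPM in CP (n = 4), with log2 differences from CP of 2.66 ± 0.44 (SE) and 2.23 ± 0.44. The ratio of OSVZ to CP was 11.97 in set 1 and 4.23 in set 2, while that of VZ to CP was 5.25 and 4.16.

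Its partner miR-3613-3p followed another order. OSVZ libraries ran from 40.2 to 96.5 CPM (median 52.6), VZ libraries from 15.2 to 40.9 CPM and CP libraries from 11.8 to 33.4 CPM. All OSVZ libraries were above all CP libraries, whereas VZ overlapped with CP. Log2 differences from CP were 1.68 ± 0.61 (SE) in OSVZ and 0.45 ± 0.62 in VZ. The miRNAs miR-15a and miR-16, of the same human chromosome region and known to restrain the cell cycle, passed the test in neither zone with either arm. miR-15a-5p had means of 1229.97 CPM (SD 577) over the 4 VZ, 1777 CPM (SD 683) over the 6 OSVZ and 1489.6 CPM (SD 374) over the 4 CP libraries. The 3p arms had higher means in the germinal zones, with miR-15a-3p at 22.3, 17.1 and 4.49 CPM in VZ, OSVZ and CP (log2 differences 2.30 ± 0.99 and 2.26 ± 0.94) and miR-16-3p at 475, 619.99 and 303 CPM (0.60 ± 0.36 and 0.998 ± 0.34). Under the 22 alternatives miR-16-3p passed in 3 for VZ and 9 for OSVZ, and miR-15a-3p in 1 and 2.

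**Figure D2:**
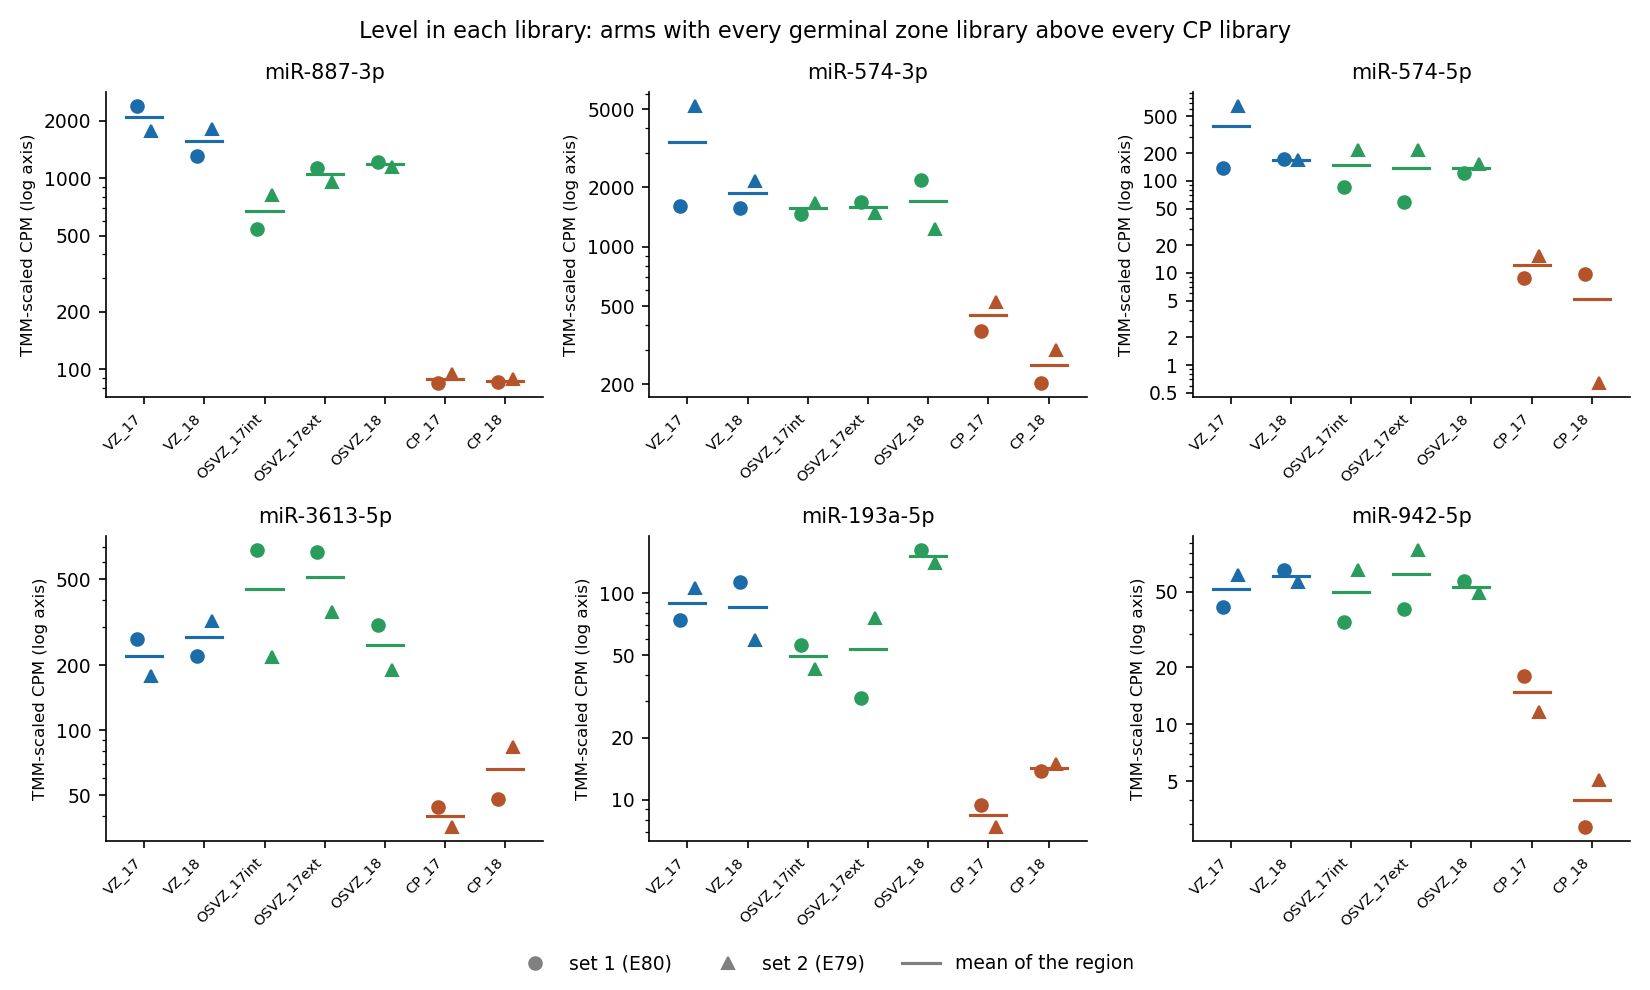
TMM-scaled level (CPM, log axis) of the 6 arms for which every germinal zone library was above every CP library, by region, with set 1 as circles, set 2 as triangles and the mean of the 2 libraries as a line. CP points lie lowest in each panel, and for miR-193a-5p both OSVZ_18 points lie highest.

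miR-193a is described as a repressor of the receptor tyrosine kinase KIT and as silenced in some leukaemias. That role was not measured here for either arm. The 5p arm of miR-193a was at 73.8, 106, 113 and 58.9 CPM in VZ and at 9.44, 7.38, 13.7 and 14.8 CPM in CP. The OSVZ libraries of area 18 held 162 and 139 CPM, the highest of all, and those of area 17 held 56.0 and 43.0 CPM in the inner and 30.9 and 76.1 CPM in the outer sublayer. CP lay below every germinal library, and OSVZ spanned the whole VZ range. Means of 87.9 ± 25.7 CPM in VZ (SD, n = 4) and 84.6 ± 53.8 CPM in OSVZ (n = 6) were 7.74 and 7.45 times the 11.3 ± 3.53 CPM of CP (n = 4), or 3.001 ± 0.58 (SE) and 3.005 ± 0.56 on the log2 scale. The ratios held in both sets, at 8.05 and 7.42 for VZ and 7.17 and 7.74 for OSVZ.

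The 3p arm, which carries the seed that miR-193a shares with miR-193b, was sparse. It had 0 to 276 counts per library, 0 counts in 3 libraries and means of 8.89, 6.9999 and 3.08 CPM in VZ, OSVZ and CP, with overlap between all zones. Of the 8 arms of miR-193b, miR-365, miR-15a and miR-16, given as seed or locus relatives, 0 were called in VZ (7.37% of all arms called in either direction) and 1 in OSVZ (6.32%). The call was miR-193b-3p, which had the opposite sign to the 6 leading arms, the more abundant arm of each name (log2 difference of OSVZ from CP -1.32 ± 0.39, edgeR adjusted p = 0.0325). The sign of the leading arms follows from the choice of names, so nothing is read from this contrast. The level of miR-193b-3p was 105 ± 41.0 CPM over the 6 OSVZ, 159.6 ± 62.1 CPM over the 4 VZ and 287 ± 120.1 CPM over the 4 CP libraries. This call was kept under 7 of 22 alternative settings, with edgeR and DESeq2 adjusted p from 0.00302 to 0.371 over them, and it was lost without any 1 of the 4 CP libraries. miR-365-3p, which is cut from the same clusters, had means (± SD) of 153 ± 67.9 CPM over VZ, 246 ± 129.9 CPM over OSVZ and 289.5 ± 214 CPM over CP.

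miR-942-5p is a low-level miRNA described mainly in tumours. VZ libraries had 41.3, 61.3, 65.0 and 55.9 CPM, OSVZ libraries 34.4 to 83.2 CPM with a median of 52.96 CPM. In CP it was at 18.0 and 11.7 CPM in area 17 and 2.88 and 5.08 CPM in area 18. The germinal libraries did not reach down to CP, and they overlapped with each other in every neighbouring pair of regions. The VZ mean of 55.9 ± 10.4 CPM (SD, n = 4) and the OSVZ mean of 54.8 ± 17.7 CPM (n = 6) stood against 9.39 ± 6.82 CPM in CP (n = 4), with log2 differences of 2.85 ± 0.65 (SE) and 2.80 ± 0.63. The ratio of VZ to CP was 3.46 in area 17 and 15.2 in area 18, and 5.10 in set 1 and 6.999 in set 2. That of OSVZ to CP was 4.20 and 7.87 in the sets. miR-942-3p did not separate layers, with means (± SD) of 3.30 ± 3.81 CPM for the 4 VZ, 4.34 ± 3.39 CPM for the 6 OSVZ and 4.36 ± 3.63 CPM for the 4 CP libraries.

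miR-605, a target of the tumour suppressor p53 that in turn represses the p53 inhibitor MDM2, had few counts in CP. Its 5p arm was at 32.7 and 72.1 CPM in VZ_17 and 14.9 and 17.1 CPM in VZ_18. In OSVZ it ran from 2.92 to 30.4 CPM with a median of 10.3 CPM. CP libraries had 0.690 and 0.238 CPM in area 17 but 2.21 and 16.2 CPM in area 18, so that CP_18 replicate 2 lay between the VZ_18 libraries. The ratio of VZ to CP was 1.74 within area 18. In area 17 the CP libraries held only 3 and 2 counts, which leaves the ratio there without a usable size. Means were 34.2 CPM in VZ (SD 26.5, n = 4), 12.8 CPM in OSVZ (SD 11.1, n = 6) and 4.85 CPM in CP (SD 7.65, n = 4), so the spread in CP was larger than its mean. The ratio of mean levels of VZ to CP over all libraries was 7.06. The fitted log2 difference from CP, which weights both areas equally, was 3.87 ± 1.03 (SE) in VZ and 2.53 ± 0.95 in OSVZ. Both fitted values thus rest in part on the 3 and 2 counts of CP_17, and their size is limited by them. Without CP_17 replicate 1 these were 4.82 and 3.57, and without CP_17 replicate 2 they were 3.37 and 2.004.

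The 3p arm of miR-605 was at 26.5, 16.5, 36.3 and 6.82 CPM in VZ and 2.53, 0.833, 0.221 and 1.14 CPM in CP. OSVZ ran from 0.443 to 9.71 CPM, with its lowest library, OSVZ_17int replicate 2, at 3 counts. VZ stayed above CP in every library, and OSVZ did so in 5 of 6 libraries. Log2 differences were 4.06 ± 1.26 (SE) for VZ and 2.46 ± 1.13 for OSVZ. Without CP_18 replicate 2 they were 5.35 and 3.79, and the lowest values with 1 library left out were 3.51 (without CP_18 replicate 1) and 1.88 (without OSVZ_17int replicate 1). Other miRNAs of the p53 network, from a list that includes the miR-34 family, were counted beside miR-605. Of 15 tested arms, 0 were higher and 1 was lower in VZ than in CP, a share close to the 7.37% of all arms, namely miR-192-5p (-2.35 ± 0.51, edgeR adjusted p = 0.00207). In OSVZ the smooth muscle miRNA miR-145-5p was higher (1.44 ± 0.37, edgeR adjusted p = 0.0109) and miR-192-5p was lower (-1.85 ± 0.47, edgeR adjusted p = 0.00854), and 13 did not pass, beside 6.32% of all arms called. The call of miR-192-5p was kept in 21 of 22 alternatives for VZ and in 13 for OSVZ, and that of miR-145-5p in 18, with each lost without CP_17 replicate 2 in OSVZ (adjusted p over the alternatives up to 0.142 and 0.110).

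**Figure D3:**
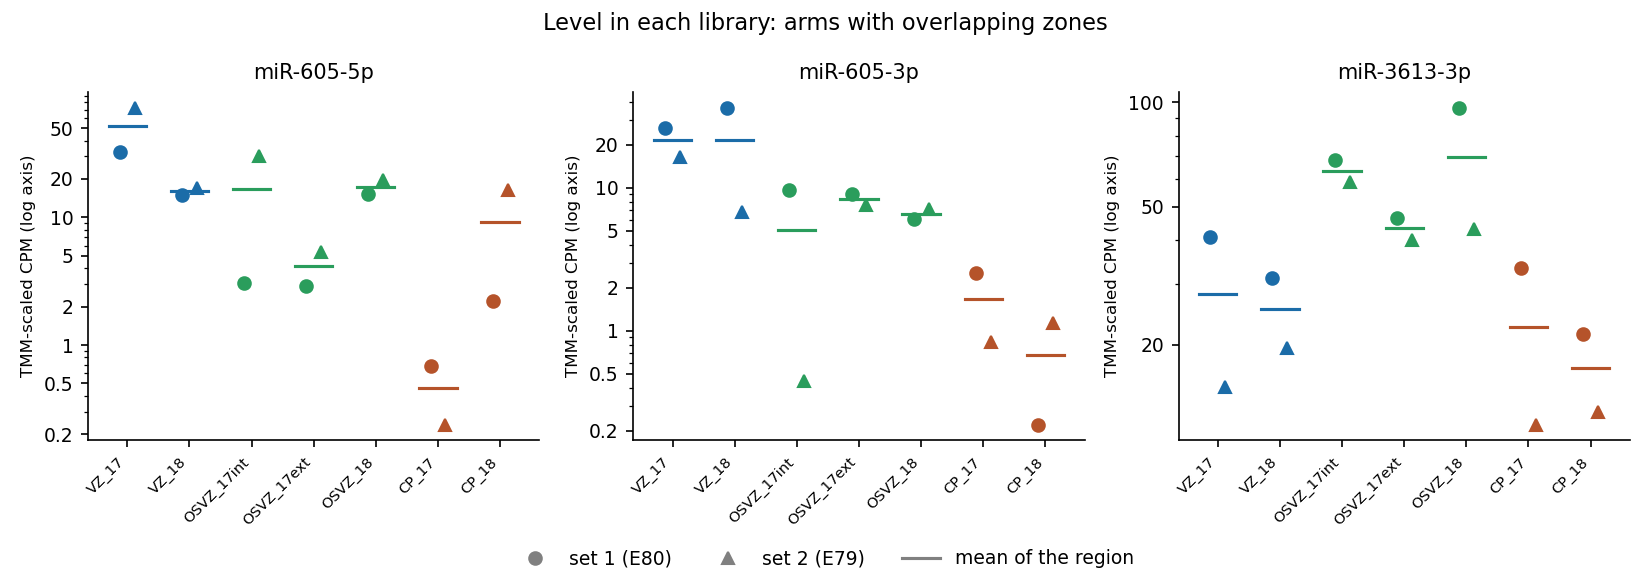
TMM-scaled level (CPM, log axis) of miR-605-5p, miR-605-3p and miR-3613-3p by region, with set 1 as circles, set 2 as triangles and the mean as a line. For miR-605-5p the CP_18 replicate 2 point reaches the VZ_18 points, and for miR-3613-3p the 3 OSVZ means lie highest.

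The share of the 5p arm among the reads of a name does not depend on the scaling between libraries. It is built from the same contrast and is also only described. For miR-574 the 5p share was 7.15% to 11.1% in VZ and 0.211% to 4.59% in CP, without overlap, and 3.43% to 12.8% in OSVZ. Its mean was 9.02% ± 1.84 in VZ (SD, n = 4), 8.23% ± 3.95 in OSVZ (n = 6) and 2.49% ± 1.80 in CP (n = 4). Within OSVZ it went with the set. OSVZ_17ext had 3.43% in replicate 1 (95% Wilson interval 3.11% to 3.78%) and 12.8% in replicate 2 (12.1% to 13.4%). Such intervals cover counting error only, since reads were amplified and carry no molecular identifiers.

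For miR-942 the 5p share was 93.9% ± 7.39 in VZ (n = 4), 93.0% ± 4.19 in OSVZ (n = 6) and 65.4% ± 17.8 in CP (n = 4), where 27 to 180 counts per library lay behind it. CP_17 replicate 1, at 87.6% (79.2% to 93.0%), overlapped with the germinal zones. For miR-3613 it was 90.1% ± 3.62 in VZ (n = 4), 85.1% ± 7.22 in OSVZ (n = 6) and 72.0% ± 12.3 in CP (n = 4), with CP_18 replicate 2 at 86.7% (84.1% to 89.0%) within the germinal range. miR-193a had the same order of means, 92.8% ± 7.999 in VZ, 90.5% ± 9.07 in OSVZ and 84.8% ± 19.1 in CP, over libraries at 60.3% to 100%. In these 4 miRNAs the mean 5p share was thus higher in both germinal zones than in CP, but only for miR-574 against VZ without overlap. For miR-887, with almost no 5p reads, the order of means was the other way, at 0.101% in VZ, 0.0951% in OSVZ and 0.830% in CP. That CP mean rested on CP_17 replicate 1, at 2.92% (11 of 377 counts). The other CP libraries were at 0%, 0.257% and 0.143%, and the zones overlapped. The share for miR-605 ran from 21.4% to 98.6% over the libraries, with zone means of 59.3%, 55.5% and 57.0%. In every region it was higher in set 2 than in set 1. The gap was small in OSVZ_18 (73.2% and 71.6%), CP_17 (22.2% and 21.4%) and CP_18 (93.4% and 90.9%). CP_17 rested on 9 and 14 counts and CP_18 on 137 and 11. The 95% Wilson intervals of the sets overlapped in these regions, and also in OSVZ_17ext (31.1% to 52.2% and 16.2% to 34.9%). No direction is read there.

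**Figure D4:**
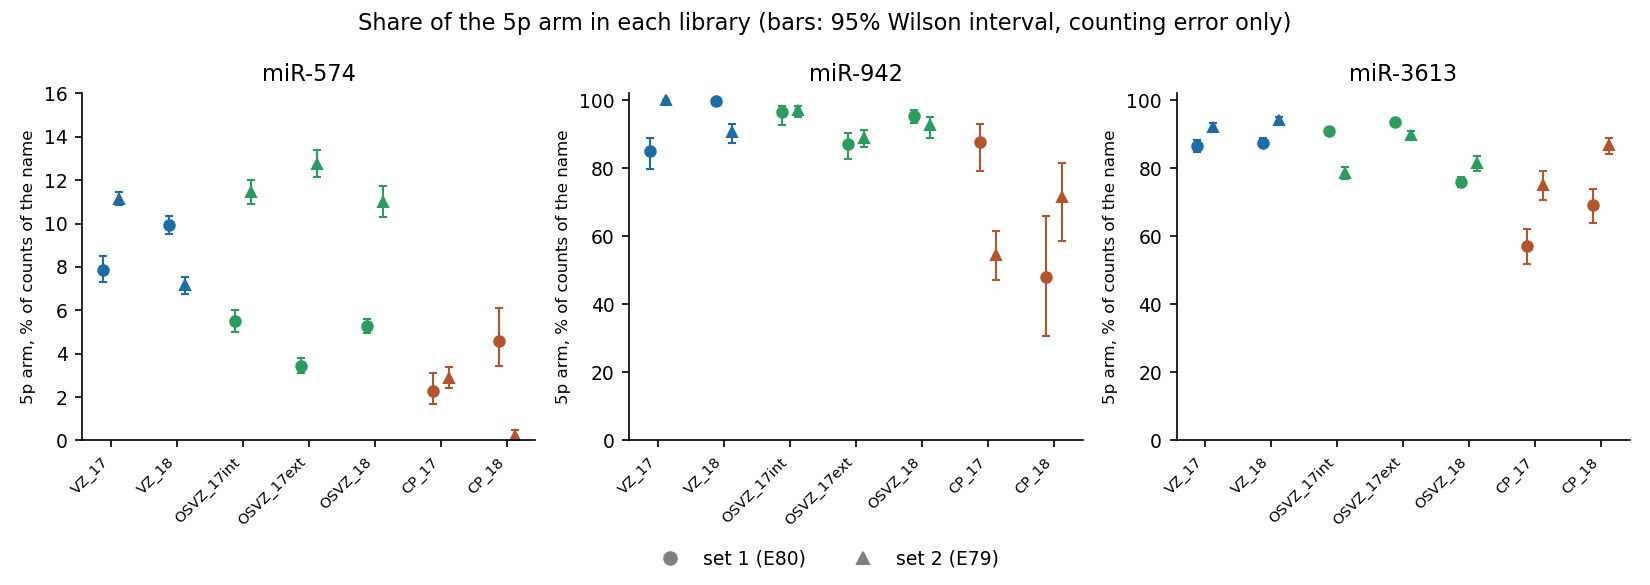
Share of the 5p arm (% of the counts of a name) in each library for miR-574, miR-942 and miR-3613, by region, with set 1 as circles, set 2 as triangles and 95% Wilson intervals as bars. CP points lie low for miR-574, and the OSVZ points of miR-574 are split by set.

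The comparison of OSVZ with VZ was not used to choose the names and was tested. None of the 12 arms passed at an adjusted p under 0.05 with edgeR (2 had an unadjusted p under 0.05, as did 9.92% of all arms), where 0.0878% of all arms were called. miR-887-3p had the smallest p (log2 difference -0.86 ± 0.33, 95% interval -1.52 to -0.20, edgeR adjusted p = 0.420). All 4 VZ libraries were above all 6 OSVZ libraries, as for 2.11% of all arms that did not overlap in either direction. DESeq2, which called 28 arms here against 1 by edgeR, gave it an adjusted p of 0.0439, the lowest over 22 alternatives, which reached 0.750. The next was miR-3613-3p (1.23 ± 0.60, interval 0.022 to 2.44, edgeR adjusted p = 0.484), with OSVZ_17ext replicate 2 at 40.2 CPM just under VZ_17 replicate 1 at 40.9 CPM.

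The remaining arms of at least 10 CPM did not pass either, with wide intervals. They were miR-574-5p (-0.88 ± 0.52, interval -1.94 to 0.18), miR-574-3p (-0.54 ± 0.36, interval -1.26 to 0.18) and miR-605-5p (-1.34 ± 0.84, interval -3.05 to 0.37). Nearer to 0 were miR-3613-5p (0.43 ± 0.40, interval -0.38 to 1.25), miR-942-5p (-0.051 ± 0.56, interval -1.20 to 1.10) and miR-193a-5p (0.0034 ± 0.50, interval -1.02 to 1.02). These intervals allow a difference of up to about 1 log2 unit in either direction for miR-193a-5p and miR-942-5p, so an equal level in the germinal layers is not shown.

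Areas 17 and 18, which later differ in the number of neurons they hold, were compared within each zone. With edgeR 0 of the 12 arms passed in VZ (0.176% of all arms called), in OSVZ (0%) or in CP (0%), and 0, 1 and 2 of them had an unadjusted p under 0.05, beside 7.90%, 2.55% and 3.16% of all arms. The OSVZ value was that of miR-193a-5p (log2 difference of area 17 from area 18 -1.55 ± 0.63, edgeR adjusted p = 1), where all 4 area 17 libraries were below both area 18 libraries (7.02% of all arms did not overlap there). In CP they were those of miR-605-5p (-3.79 ± 1.54, edgeR adjusted p = 0.994) and miR-942-5p (1.96 ± 0.91, edgeR adjusted p = 0.994), each with both area 17 libraries on the same side of both area 18 libraries, as for 37% of all arms. Whether the area difference itself varied between zones was tested in 36 terms (12 arms, 3 pairs of zones), and the lowest edgeR adjusted p was 0.640. Between the inner and outer sublayers of the area 17 OSVZ 0 of 12 arms were called (0% of all arms) and 0 had an unadjusted p under 0.05. Differences of arms of at least 10 CPM ran from -0.64 for miR-887-3p to 1.68 for miR-605-5p, with SEs of 0.50 to 1.33. DESeq2 called 22, 0 and 3 arms of the whole table between areas and 2 between sublayers, and 0 of them were members.

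Arms with the most similar pattern were taken by Pearson correlation of log2(CPM + 1) over the 14 libraries, among 371 other arms of at least 10 CPM. The libraries share the zone difference that chose the names, so these values are descriptions. miR-887-3p was most like miR-92b-3p (r = 0.99), a miRNA of cortical progenitors, then miR-29a-3p (0.96) and miR-92b-5p (0.96). miR-92b arms also led for miR-574-3p (0.95 for 5p and 0.94 for 3p), followed by miR-214-3p (0.89), of the mesenchymal and mural list below. For miR-942-5p they led too (0.92 for 3p and 0.91 for 5p), followed by miR-423-5p (0.90). miR-193a-5p was closest to miR-214-3p (0.88), miR-1301-3p (0.87) and miR-29a-3p (0.87), and miR-3613-5p to miR-29a-3p (0.87), miR-222-3p (0.86) and miR-423-5p (0.85). For miR-605-5p the values were lower, at 0.79 for miR-584-5p, 0.75 for let-7c-5p and 0.73 for miR-29a-3p.

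Among the 6 leading arms themselves, the 15 pairs had r from 0.37 for miR-605-5p with miR-3613-5p to 0.91 for miR-574-3p with miR-887-3p. With the zone means taken out, the same pairs ran from -0.45 to 0.47, with values of both signs. With zone means taken out in the same way, the 5p and 3p arms had r = 0.47 for miR-574, 0.35 for miR-193a, 0.04 for miR-3613 and -0.40 for miR-605.

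Markers of other cells were measured in the same libraries. Their counts of calls against CP stand beside 7.37% of all tested arms called in VZ and 6.32% in OSVZ, in either direction. Mesenchymal and mural miRNAs (10 arms) summed to 969 to 1957 CPM in VZ, 1419 to 4938 CPM in OSVZ and 733 to 1175 CPM in CP, with miR-199a-3p at 0 in CP. Of 8 tested arms 1 was higher and 1 lower in VZ, and 2 were higher and 1 lower in OSVZ, with miR-214-3p higher in both (1.53 ± 0.43 and 1.71 ± 0.42, kept in 18 and 19 of 22 alternatives). The lower arm was miR-199b-5p in both (-2.29 ± 0.71 and -2.38 ± 0.66, kept in 8 and 13 of 22), so the list moved in both directions. Myeloid and lymphoid miRNAs (12 arms) summed to 6439 to 9052 CPM in VZ, 8413 to 18586 CPM in OSVZ and 16070 to 35390 CPM in CP, and miR-142-3p was at 0 in CP. The VZ sums lay below those of CP, while the median log2 difference from CP of the 12 arms was 1.63 in VZ and 0.26 in OSVZ. Among them higher levels in VZ than in CP passed for miR-155-5p (2.92 ± 0.53) and miR-223-3p (2.29 ± 0.52, lost without CP_17 replicate 1 or CP_18 replicate 1), a lower one for miR-342-3p (-1.67 ± 0.37), and in OSVZ a higher one for miR-155-5p (2.41 ± 0.50). Erythroid miRNAs (6 arms) were at 55.9 to 334 CPM in VZ, 18.9 to 103 CPM in OSVZ and 27.5 to 126 CPM in CP, with the highest value in VZ_18 replicate 1 and 0 of 4 tested arms called. Endothelial miR-126 (2 arms) was at 980 to 2795, 1434 to 5289 and 1547 to 4505 CPM with 0 calls. The part of these cells in the members' differences was not tested. Oligodendrocyte miRNAs (4 arms) were at 115 to 318, 97.5 to 158 and 398 to 766 CPM in VZ, OSVZ and CP. Of 4 tested, miR-219-3p was higher in VZ (2.80 ± 0.72, kept in 18 of 22 and lost without VZ_18 replicate 1, CP_17 replicate 1 or CP_18 replicate 1), and both arms of miR-338 were lower in VZ (-2.37 and -2.41, each kept in 20 of 22, the 5p arm lost without VZ_18 replicate 1) and in OSVZ (-2.65 and -2.72). Those of choroid plexus and pigment epithelium (4 arms) were at 209 to 1953, 167 to 957 and 4947 to 7254 CPM, with miR-204-5p lower in VZ (-3.84 ± 0.46) and OSVZ (-3.46 ± 0.41) and 2 of 3 tested arms not passing. VZ_18 replicate 1 and VZ_17 replicate 2 held the highest erythroid and the highest mesenchymal sum of VZ. With both left out, the log2 differences of VZ from CP were 4.81 for miR-887-3p, 2.71 for miR-574-3p, 2.83 for miR-193a-5p, 2.88 for miR-942-5p and 2.68 for miR-3613-5p. The VZ libraries kept still had mesenchymal sums of 1591 and 1741 CPM, above the highest CP library at 1175 CPM. A part of such cells in these differences was therefore not tested by leaving the others out.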

How the data were processed

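Small RNA was sequenced from laser-cut regions. The authors deposited tables of raw counts per miRNA arm and library. Of the aligner, annotation and genome build it can only be said: not given in the sources used here. Columns were matched to samples by their region names, and each table to a replicate set by how those names are spelled in the sample titles. Of a further table, 12 value columns matched no label and were not used, so 6 of 20 labelled samples were not analysed here.

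Counts of 1656 arms were fitted with edgeR 4.0.16 (R 4.3.3, TMM scaling, quasi-likelihood F test, 6 residual degrees of freedom), with region and replicate set as terms. The filterByExpr step kept 1139 arms with 99.99% of the counts. P-values were adjusted by Benjamini-Hochberg over these arms and called under 0.05. For OSVZ, both area 17 sublayers were averaged first and then averaged with area 18. Replicate numbers were taken as pairs because the labels give each set its own embryonic day: set differences correlated between regions with a median r of 0.35 (0.053 to 0.62, 20 of 21 pairs above 0.1). Levels are TMM-scaled CPM. DESeq2 1.42.0, other scalings, other filters, no block and each library left out were the alternatives, 22 per result, of which 2 were chosen after seeing the data.

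The members and lists were chosen with earlier results of these data known. Named were all members, the 3 most similar arms for each leading arm and up to 4 arms of each list by smallest p, with miR-15a, miR-16-3p and miR-365-3p added after their values were seen. No sequences are shown.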

Additional observations from a re-analysis of the deposited data

Results flagged for a closer look

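In 6 of the 36 groups of libraries examined, 1 library stood apart from the rest by Dixon's criterion. Its nominal rate of about 1 in 20 holds for normally distributed values in independent groups. Here the CPM were not put on a log scale, and the groups share libraries and paired arms. No excess over that rate is therefore read from the count. VZ_17 replicate 2 was the high library for both arms of miR-574, at 652 CPM for miR-574-5p and 5194 CPM for miR-574-3p. For miR-605-5p, CP_18 replicate 2 was at 16.2 CPM. The other 3 were low arms: miR-887-5p at 5.43 CPM in OSVZ_18 replicate 1 and at 2.53 CPM in CP_17 replicate 1, and miR-942-3p at 9.76 CPM in CP_17 replicate 2.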

How the results depend on the processing

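In the comparisons with CP, the 9 arms other than miR-887-5p, miR-193a-3p and miR-942-3p were above 0 under all 22 alternatives for both zones. This sign is no test, since the names were chosen for a higher germinal level in the same libraries. The log2 difference of VZ ran from 4.16 to 4.90 for miR-887-3p, 2.57 to 3.47 for miR-574-3p, 4.24 to 6.74 for miR-574-5p, 1.90 to 2.75 for miR-3613-5p, 2.83 to 3.67 for miR-193a-5p, 2.62 to 3.51 for miR-942-5p and 3.37 to 4.82 for miR-605-5p. In VZ the 3 low arms changed sign, with miR-193a-3p from -3.002 to 6.03. In OSVZ miR-887-5p ran from -0.90 to 2.83 and miR-942-3p from -0.50 to 0.30, while miR-193a-3p ran from 0.072 to 6.08.

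The number of arms called over the whole table moved more, and the cause was not tested. For VZ against CP (84) it was 53 with no replicate block and 169 with DESeq2, and 53 to 120 with 1 library left out. For OSVZ against CP (72) it was 120 with DESeq2, 125 with both VZ_18 replicate 1 and VZ_17 replicate 2 left out, and 44 to 100 with 1 left out. For OSVZ against VZ (1) it was 28 with DESeq2, 2 with both left out, 0 to 24 with 1 left out (24 without VZ_17 replicate 1), and 0 with no replicate block, DESeq2 size factors, library totals, totals less miR-130b or a 10 CPM minimum. For the areas in VZ (2) it was 22 with DESeq2, 1 with its size factors, 5 with no filter, 1 to 26 with 1 left out (26 without VZ_17 replicate 1), and 0 with no replicate block, a 10 CPM minimum or both left out. In OSVZ (0) it was 1 with both left out and 0 to 1 with 1 left out. In CP (0) it was 3 with DESeq2, no filter or both left out, and 0 to 3 with 1 left out. Between sublayers (0) it was 2 with DESeq2, 6 with both left out and 0 to 1 with 1 left out. The replicate block changed no call of a member in the 5 comparisons the choice of names did not use.

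Scaling moved the balance of calls. VZ against CP had 30 higher and 54 lower arms with TMM, 37 and 32 with library totals, and 34 and 42 with DESeq2 size factors, and the median of all arms moved from -0.22 to 0.21 and 0.023. OSVZ against CP had 24 and 48, then 38 and 34, and 35 and 44. In OSVZ against VZ, miR-193a-5p (0.0034) turned to -0.089 with DESeq2, -0.088 with its size factors, -0.29 with library totals, -0.32 with totals less miR-130b, -0.11 with no filter and -0.14 with a 10 CPM minimum, and ran from -0.23 to 0.27 with 1 library left out. miR-942-5p (-0.051) turned to 0.085 with both libraries left out and ran from -0.23 to 0.21 with 1 left out. Counts of 0 to 3 limit miR-887-5p and, in CP_17, miR-605-5p.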
